A study of Mus musculus with 2 samples.

Results

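The metalloproteinases and their inhibitors are the genes that cut the matrix and the surface of marrow cells and the genes that restrain that cutting. Members were taken by symbol, as every gene whose name starts with Mmp, Adam, Adamts, Adamtsl or Timp followed by a number, which gave 84 of the 27999 genes in the deposited matrix. They comprised 4 Timp genes, 23 Mmp genes in 5 role groups, 33 Adam genes, 19 Adamts genes and 5 Adamtsl genes. The rule used no measured value. In the cells, 61 members had at least 1 UMI (unique molecular identifier, 1 counted RNA molecule), 23 had none, and 29 had at least 100 UMIs.

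Bone marrow niche cells were profiled one by one in 2 droplet libraries of polyA RNA, with 1 library for each labelled population. Both came from mice of genotype LepR-Cre;LSL-tdTomato and strain C57Bl/6JCrl, aged 3 to 4 months. One library, LepR_tdT, was of LepR-Cre;tdTomato+ cells, and the other, EC, was of marrow endothelial cells. Cre is driven by the leptin receptor gene Lepr, so tdTomato marks cells that have expressed Lepr and also their descendants. Both groups thus carry the same alleles, and no mouse without them was compared. The preparation text describes a plug flushed from tibias and digested with Collagenase I and Dispase II, a VE-Cadherin antibody injection and a tamoxifen treatment. It assigns these steps to numbered samples whose ranges overlap and exceed the 2 libraries, so which steps each library had is uncertain, and how many mice were pooled is not given.

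Matrix metalloproteinases (MMPs) are zinc enzymes that are made as inactive precursors and cleave collagens and other matrix proteins. ADAMs are mostly membrane-anchored and release the outer parts of growth factors, receptors and adhesion molecules. ADAMTS enzymes are secreted and cut proteoglycans or trim procollagens, and the ADAMTS-like proteins share their matrix-binding domains but have no proteinase domain. The TIMPs are secreted inhibitors that bind the active site of these enzymes. In bone, collagenases and gelatinases take part in remodelling of the collagen matrix, and in marrow stroma they lie beside the vessels through which blood cells leave.

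Promoter sequence is shown for the member with the largest difference inside the LepR_tdT library, Mmp13, for Mmp3, which lies in the same gene cluster and had almost no UMIs, and for Adamts2, the member with most UMIs in stromal-like cells. Each is the 250 bases before the RefSeq start on GRCm38.p6, 5′ to 3′ on the gene's strand. Capitals mark the AP-1 letters TGANTCA and the RUNX letters TGTGGT, searched on both strands. Mmp13 is read from chr9:7272264-7272513 on the plus strand, Mmp3 from chr9:7445572-7445821 on the plus strand and Adamts2 from chr11:50601835-50602084 on the plus strand.

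Mmp13: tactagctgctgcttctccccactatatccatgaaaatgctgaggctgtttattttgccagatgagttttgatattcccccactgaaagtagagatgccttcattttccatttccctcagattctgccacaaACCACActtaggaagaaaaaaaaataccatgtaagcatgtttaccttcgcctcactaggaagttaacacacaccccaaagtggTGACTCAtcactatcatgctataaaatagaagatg

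Mmp3: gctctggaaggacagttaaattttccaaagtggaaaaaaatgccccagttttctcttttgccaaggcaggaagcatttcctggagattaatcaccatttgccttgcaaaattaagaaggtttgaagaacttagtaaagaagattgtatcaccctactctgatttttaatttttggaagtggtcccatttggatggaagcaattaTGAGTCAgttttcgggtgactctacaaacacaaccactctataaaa

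Adamts2: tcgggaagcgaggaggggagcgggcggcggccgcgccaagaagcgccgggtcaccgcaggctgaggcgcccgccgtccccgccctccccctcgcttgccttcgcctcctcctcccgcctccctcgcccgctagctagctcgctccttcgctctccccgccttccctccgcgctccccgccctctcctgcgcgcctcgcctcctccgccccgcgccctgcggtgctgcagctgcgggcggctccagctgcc

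The Mmp13 window held 1 AP-1 match, which began 35 bases before the start, and 1 RUNX match on the minus strand, read as ACCACA on the strand shown, 118 bases before it. The Mmp3 window held 1 AP-1 match 46 bases before the start and no RUNX match, and the Adamts2 window held neither. Both Mmp windows held 1 TATAAA, whereas the Adamts2 window held none and had 5 GGGCGG boxes and a GC content of 78%, against 40.4% for Mmp13. Over all 32851 promoter windows of the same source and length, 6.75% held the AP-1 letters, 14% the RUNX letters, 32.7% the GC box and 12.4% the TATA letters. Of the 58 windows of 53 members, 12 held AP-1 and 11 held RUNX. A match is a description of letters and not a measured binding site.

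The cell table listed 4250 cells of LepR_tdT (median depth 4347 UMIs) and 4536 of EC (median depth 3084.5 UMIs). Cells were clustered without any member gene and named from marker lists, because the table carries no cell types. The classes used were 2955 stromal-like cells (leptin receptor-positive stroma, 69.5% of LepR_tdT cells), 249 osteolineage-like cells (bone-forming lineage) and 260 cells of an unnamed cluster 5 led by Cxcl5, Fndc1 and Kit, all of LepR_tdT. In EC they were 3456 sinusoidal-like and 250 arterial-like cells, together 3706 endothelial-like cells (81.7% of EC cells). Lepr was at 664 UMIs per 1000000 UMIs of the class (CPM) in stromal-like and 16.9 CPM in endothelial-like cells, and the endothelial cadherin gene Cdh5 at 1.21 and 838 CPM. Both genes were in the marker lists that named these classes, so their class levels are no independent check of the names. Over all cells of each library, which uses no class names, Lepr was at 608 CPM in LepR_tdT and 16.4 CPM in EC. Cdh5 was at 9.48 and 793 CPM. The libraries share 42 cell barcodes. With 1 library per population there is no replicate, so no test was run and each bracketed range is a 95% interval for counting error only. A member counted as measured when the 2 groups together held at least 20 UMIs of it, and as higher in one when its CPM was at least 2-fold that of the other. A UMI counts a molecule whatever the length of its RNA, so CPM values of different genes compare molecules recovered.

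The 84 members made up similar totals in the main classes, at 2750 CPM in stromal-like and 3204 CPM in endothelial-like cells, and a larger one, 8953 CPM, in osteolineage-like cells. The genes behind these totals differed. In stromal-like cells Adamts2 supplied 22.6% of member UMIs, Timp2 12.6%, Adamts1 12.0% and Mmp23 9.99%. In sinusoidal-like cells Adamts5 supplied 42.7% and Timp3 26.5%. Timp3 (27.1%), Adam15 (17.6%) and Adamts5 (12.4%) led in arterial-like cells, and Mmp13 alone supplied 58.3% in osteolineage-like cells. The heat map of CPM by class shows these genes with its rows ordered by role group.

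**Figure D1:**
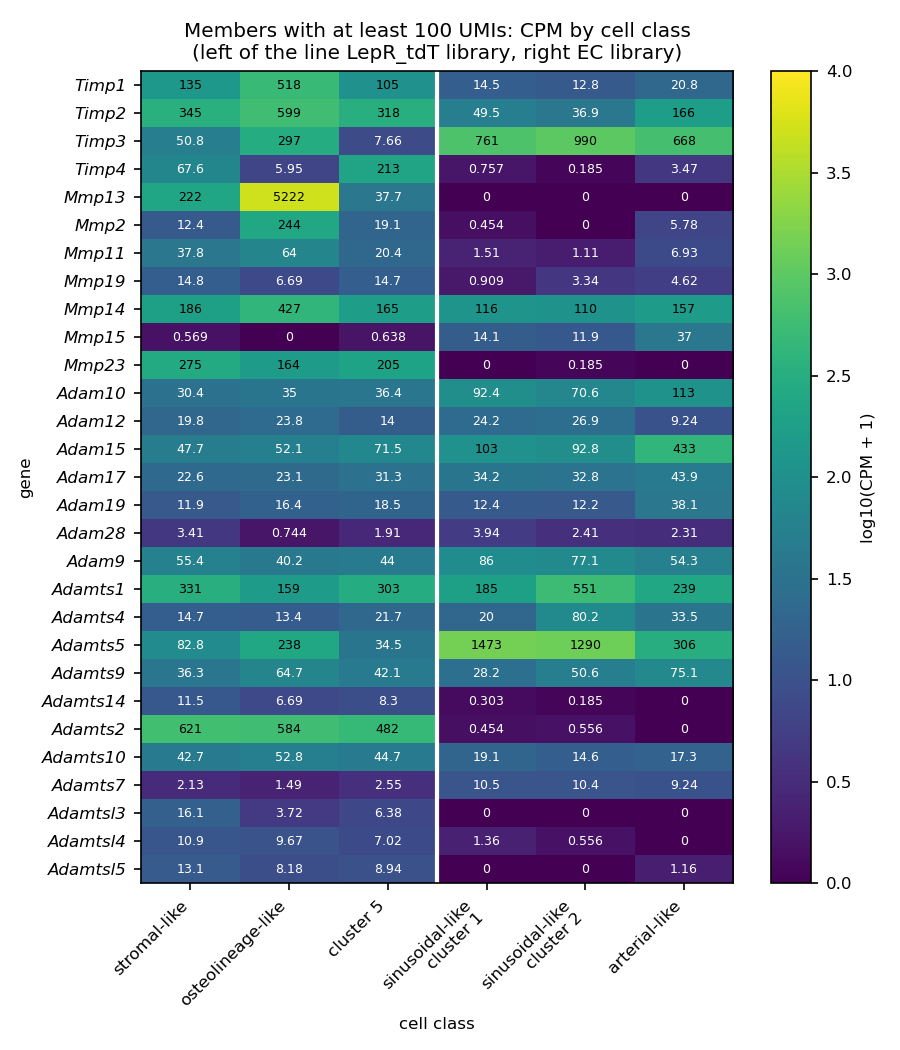
CPM of the 29 members with at least 100 UMIs (rows) in 6 cell classes (columns), 3 of the LepR_tdT library left of the white line and 3 of the EC library right of it, with the colour on a log10(CPM + 1) scale and the CPM printed in each cell. Adamts2, Mmp23 and Timp4 stand out on the left, Adamts5 and Timp3 on the right, and Mmp13 reaches 5222 CPM in osteolineage-like cells.

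The first comparison sets all cells of the LepR_tdT library against all cells of EC. Of 44 measured members, 23 were at least 2-fold higher in LepR_tdT and 9 in EC. Over all 13456 measured genes the shares were 21.2% and 17.9%. The median log2 ratio was 1.24 for the members and 0.08 for all genes. Of the 23 higher in LepR_tdT, 5 had at least 20 UMIs in EC cells on their own, and of the 9 higher in EC, 6 had at least 20 UMIs in LepR_tdT cells. Since the libraries also differ in which blood cells they carry, the members are described below by class.

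Stromal-like cells of LepR_tdT and endothelial-like cells of EC differed in most measured members. Of 40 measured, 20 reached 2-fold on the stromal side, 9 on the endothelial side and 11 on neither. The shares over all 12852 measured genes were 21.4% and 17.8%, and the median log2 ratio was 1.10 for the members and 0.10 for all genes. Only 5 of the 20 had at least 20 UMIs in endothelial-like cells, so the larger ratios rest on counts near 0 on one side. Each class came from its own library, so cell class and preparation cannot be told apart here except through the few endothelial-like cells in LepR_tdT, given below.

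All 4 inhibitor genes differed between the classes, 3 one way and 1 the other. Timp2, which also helps membrane MMPs to activate the precursor of MMP2, had 4858 UMIs (345 CPM) in stromal-like and 670 UMIs (52.1 CPM) in endothelial-like cells, 6.63-fold higher (6.12 to 7.20). Timp1 had 1892 UMIs (135 CPM) and 183 UMIs (14.2 CPM), 9.46-fold higher in stromal-like cells (8.12 to 11.1). Timp4 had 951 UMIs (67.6 CPM) and 9 UMIs (0.70 CPM), 96.6-fold higher in stromal-like cells (50.7 to 212). All 3 were thus higher in stromal-like than in endothelial-like cells, while Timp3 had the opposite pattern. Timp3, which is held in the matrix and is the TIMP best known to inhibit ADAM17 and the aggrecan-cutting ADAMTS enzymes, had 715 UMIs (50.8 CPM) in stromal-like and 10945 UMIs (851 CPM) in endothelial-like cells. It was 16.7-fold higher in endothelial-like cells (15.5 to 18.1), where 85.5% of cells had a UMI of it, against 12.5% of stromal-like cells. With cells thinned to 1000 UMIs, which left out 91 endothelial-like and 16 stromal-like cells with fewer, the shares were 54.7% and 4.46%, in the same order. Thinning also left out 24 arterial-like, 67 sinusoidal-like and 1 osteolineage-like cell for the values given below.

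The measured collagenase, gelatinase and stromelysin genes were all higher in stromal-like cells. Mmp13, the main interstitial collagenase of rodents (chr9:7272514-7283331), had 3127 UMIs (222 CPM) in stromal-like cells. Endothelial-like cells had 0 UMIs of it, so against a floor of 3 UMIs over the class it was at least 953-fold higher in the stromal-like class. Mmp2, gelatinase A, had 174 UMIs (12.4 CPM) and 8 UMIs (0.622 CPM), 19.9-fold higher (9.87 to 46.8). Mmp11, stromelysin-3, had 531 UMIs (37.8 CPM) and 22 UMIs (1.71 CPM), 22.1-fold higher (14.4 to 35.5). Mmp19, a secreted MMP outside these families, was at 14.8 and 2.18 CPM, a ratio of 6.79 (4.57 to 10.5), and Mmp28, also secreted, had 30 and 11 UMIs, a ratio of 2.49 (1.22 to 5.52). The secreted MMPs not named here had too few UMIs to be measured.

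Mmp8 and Mmp9, the neutrophil collagenase and gelatinase B, had 21 and 57 UMIs in all cells of both libraries. Of the 21 Mmp8 UMIs, 10 lay in the 43 granulocyte-like cells of EC and 9 in the 24 granulocyte-like cells of LepR_tdT. Of the 57 Mmp9 UMIs, 13 and 10 lay in those same cells, 13 in osteolineage-like cells, 12 in the stromal-like class and 1 in the endothelial-like class. In barcodes with at most 100 UMIs outside the cell table, which hold free RNA, Mmp8 was at 34.7 CPM in LepR_tdT and 36.9 CPM in EC, at about the level of the granulocyte-like cells themselves (31.9 and 21.4 CPM). Adamts13, which trims von Willebrand factor, had 2 UMIs, both in erythroid-like cells of EC. It had 0 in 12864803 UMIs of endothelial-like cells, where a floor of 3 UMIs is 0.233 CPM.

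The membrane-anchored MMPs were split. Mmp23 had 3866 UMIs (275 CPM) in stromal-like cells and 1 UMI (0.0777 CPM) in the endothelial-like class, which gives a log2 ratio of 11.79 (9.31 to 17.09). Mmp15 had 8 UMIs (0.569 CPM) and 189 UMIs (14.7 CPM), 25.8-fold higher in endothelial-like cells (12.8 to 60.7). Mmp14, the membrane collagenase that activates the MMP2 precursor, was high in both, at 2611 UMIs (186 CPM) and 1499 UMIs (117 CPM), a ratio of 1.59 (1.49 to 1.70). Mmp23 and Mmp15 were therefore near 0 in one class each, and Mmp14 in neither.

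The procollagen N-proteinases, which remove the amino-terminal propeptide from fibrillar procollagens, were all higher in stromal-like cells. Adamts2 (chr11:50602084-50807573) had 8741 UMIs (621 CPM) in stromal-like cells and 6 UMIs (0.466 CPM) in endothelial-like cells, 1332-fold higher (612 to 3632). A UMI of it was found in 89% of stromal-like cells. Adamts14 had 162 UMIs (11.5 CPM) against 3 UMIs (0.233 CPM), a ratio of 49.4 (16.6 to 242), and Adamts3 had 19 UMIs against 1. The genes of their substrates stood in the same class, with Col1a2 at 1256 CPM in stromal-like and 0.70 CPM in endothelial-like cells, and Col3a1 at 84.5 and 0 CPM.

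The proteoglycanases, which cut versican and aggrecan, included the most abundant endothelial member and a member shared by both classes. Adamts5 (chr16:85856173-85901828) had 1165 UMIs (82.8 CPM) in stromal-like cells and 16951 UMIs (1318 CPM) in endothelial-like cells, 15.9-fold higher in the latter (15.0 to 16.9). Adamts1, its neighbour on chr16:85793827-85803113 with 53059 bases and no other protein-coding gene between them, had 4657 UMIs (331 CPM) and 4400 UMIs (342 CPM), a ratio of 0.968 (0.929 to 1.01). The direction for Adamts1 was not stable: its log2 ratio of -0.05 became 0.79 without the stress-led sinusoidal-like cluster described below and 0.09 after thinning. Adamts9 was at 36.3 and 40.7 CPM, a ratio of 0.892 (0.788 to 1.01). Adamts4 was at 14.7 and 46.2 CPM, 3.14-fold higher in endothelial-like cells (2.67 to 3.69), and without the stress-led cluster its log2 ratio of -1.65 became -0.55. Adamts15 had 65 UMIs in the stromal-like class and 0 in the other, at least 19.8-fold higher. The versican gene Vcan had 19.3 CPM in stromal-like and 0.311 CPM in endothelial-like cells, and the aggrecan gene Acan had no UMI in either.

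Among the other ADAMTS genes, Adamts10, which binds fibrillin fibres, was at 42.7 and 17.1 CPM, 2.50-fold higher in stromal-like cells (2.14 to 2.93). Adamts7, which can cleave the cartilage matrix protein COMP, was at 2.13 and 10.3 CPM, 4.85-fold higher in endothelial-like cells (3.24 to 7.46). Of the 5 ADAMTS-like genes, which encode no proteinase, the 4 measured were on the stromal side, and Adamtsl2, with 14 UMIs in endothelial-like cells and 0 in the other class, had too few UMIs to be measured. Adamtsl3 had 227 UMIs (16.1 CPM) and 0 UMIs in the 2 classes, at least 69.2-fold higher in the stromal-like one. Adamtsl5 had 184 UMIs against 1, a ratio of 168 (29.8 to 6683), and Adamtsl4 had 153 against 12 UMIs, 11.7-fold higher (6.49 to 23.1). The fibrillin gene Fbn1, whose product several ADAMTS-like proteins bind, was at 260 CPM in stromal-like and 0.466 CPM in endothelial-like cells.

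The ADAMs grouped by gene name as proteolytic differed least. Of 8 measured, none was 2-fold higher in stromal-like cells, 2 were higher in endothelial-like cells and 6 in neither. Adam10, the sheddase that opens Notch receptors for signalling, had 427 UMIs (30.4 CPM) and 1089 UMIs (84.6 CPM), 2.79-fold higher in endothelial-like cells (2.49 to 3.13). Adam15 had 671 UMIs (47.7 CPM) and 1557 UMIs (121 CPM), 2.54-fold higher in endothelial-like cells (2.32 to 2.78). Adam17, the sheddase of TNF and of several growth factors, was at 22.6 and 34.3 CPM, 1.52-fold higher in endothelial-like cells (1.31 to 1.76). Adam9 was at 55.4 and 80.1 CPM, Adam12 at 19.8 and 24.3 CPM, Adam19 at 11.9 and 14.1 CPM and Adam28 at 3.41 and 3.19 CPM. The other 24 ADAM genes, many of them known from testis, had at most 73 UMIs each over all cells (Adam23), and 14 of them had none. No protein sequence was checked, so some of these may encode proteinases too. Adam23 was at 44 and 6 UMIs, 6.71-fold higher in stromal-like cells (2.85 to 19.3).

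**Figure D2:**
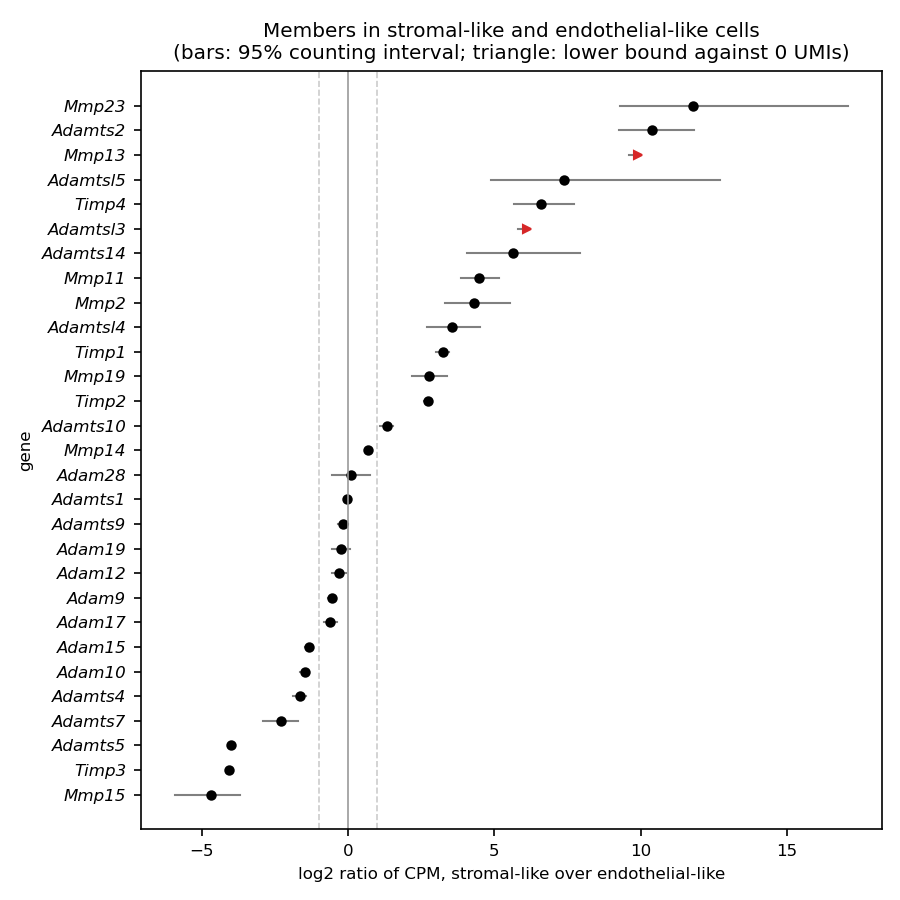
Log2 ratio of CPM, stromal-like cells of LepR_tdT over endothelial-like cells of EC (x axis), for the 29 members with at least 100 UMIs (y axis), with 95% counting intervals as bars, dashed lines at a 2-fold difference, and triangles for lower bounds against 0 UMIs. Mmp23 (11.79) and Adamts2 (10.38) lie at one end, Adamts5 (-3.99), Timp3 (-4.06) and Mmp15 (-4.69) at the other, and most ADAM genes lie near 0.

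A small check within one preparation was possible, because 60 endothelial-like cells with 197269 UMIs lay in the LepR_tdT library. In these cells Adamts5 was at 1130 CPM (223 UMIs) and Timp3 at 831 CPM (164 UMIs), against 82.8 and 50.8 CPM in the stromal-like cells of the same library. Mmp13 had 2 UMIs there (10.1 CPM), Adamts2 8 UMIs (40.6 CPM), Mmp23 3 UMIs (15.2 CPM) and Timp2 8 UMIs (40.6 CPM). The contrast for these 6 genes was thus present inside a single library. Of 34 members measured, 13 gave no informative bound with so few UMIs. Of the 21 left, 9 were higher in stromal-like cells and 2, Adamts5 and Timp3, in endothelial-like cells, where the shares over all genes were 15.7% and 17.6%. Adam10 and Adam15 had log2 ratios of -0.88 and -0.67 there and did not reach 2-fold. Calls lost there also included Adamts4, at -0.05 against -1.65 with the EC cells, Adamtsl3 at 0.09 and Adamts14 at -0.40. Adamtsl3 was at the floor of 3 UMIs in those cells.

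Genes that act on or with the members were read from lists as background to these values. Of 11 measured partners of ADAM10 and ADAM17, 3 reached 2-fold on the stromal side and 5 on the endothelial side. Tspan15, a tetraspanin that escorts ADAM10, was at 0.569 CPM in stromal-like and 198 CPM in endothelial-like cells, while Tspan17, of the same family, was at 172 and 36.8 CPM. Of the iRhom genes that carry ADAM17 to the surface, Rhbdf1 was at 52.9 and 12.1 CPM and Rhbdf2 at 0.355 and 6.22 CPM. Tspan15 and Rhbdf2 thus lay on the endothelial side and Tspan17 and Rhbdf1 on the stromal side, while Rhbdf1 was the higher iRhom gene in both classes. Of 8 measured other regulators, 5 were stromal and 2 endothelial by the same rule. Lrp1, the receptor that clears several members from the matrix, had 2759 UMIs (196 CPM) in stromal-like cells and 0 in the other class, at least 841-fold higher, and Reck, a membrane inhibitor of MMPs, was at 12.1 and 4.82 CPM.

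In the plasminogen system, which activates MMP precursors, 2 of 6 measured genes were stromal and 4 endothelial. The inhibitor gene Serpine2 (8735 against 5.60 CPM) was stromal, while the urokinase gene Plau (0.0711 against 10.7 CPM) and its receptor gene Plaur (0.355 against 22.9 CPM) were endothelial. Of 15 measured genes for shed ADAM substrates, 6 were stromal and 8 endothelial. The substrate list includes Cdh5, Kdr and Tek, which were also endothelial naming markers, so the endothelial count follows in part from the naming. Kitl, the gene of stem cell factor, was at 821 and 8.39 CPM, and Tnfsf11, the gene of RANKL, at 85.7 and 0 CPM. Sele was at 0.213 and 160 CPM. Of 10 measured ADAMTS substrate genes, 9 were stromal and 1, Bcan, endothelial. Of 14 measured other pericellular proteinase genes, 9 were stromal, among them Pappa at 666 against 0.155 CPM, and 5 endothelial, among them Ctsl at 1209 against 7318 CPM.

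Within the LepR_tdT library, osteolineage-like cells were compared with stromal-like cells, the same stromal-like cells as above. Of 37 measured members, 9 were at least 2-fold higher in osteolineage-like cells (5.84% over all genes) and 4 in stromal-like cells (6.64% over all genes), with a median log2 ratio of 0.20 for the members and -0.07 for all genes. Of the 9, 7 had at least 20 UMIs in stromal-like cells on their own. Mmp2, the measured collagenase and 2 of 4 measured membrane MMPs were among the 9, as was the other gelatinase gene, Mmp9, on few UMIs. None of 7 measured proteolytic ADAMs and none of the 3 procollagen N-proteinases was called either way.

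Mmp13 had 7021 UMIs (5222 CPM) in the 249 osteolineage-like cells and 3127 UMIs (222 CPM) in the 2955 stromal-like cells, 23.5-fold higher (22.5 to 24.5). The osteolineage-like cells, with 7.41% of the library's UMIs, thus held 65.4% of its Mmp13 UMIs. Mmp2 had 328 UMIs (244 CPM) and 174 UMIs (12.4 CPM), 19.7-fold higher (16.4 to 23.8). Mmp14 had 574 UMIs (427 CPM) and 2611 UMIs (186 CPM), a log2 ratio of 1.20 (1.07 to 1.33). These are a collagenase, a gelatinase and the membrane enzyme that activates both precursors, and all 3 were higher in the same class. Mmp16, another membrane MMP, had 26 and 15 UMIs, 18.1-fold higher (9.25 to 36.8), and Mmp9 had 13 and 12 UMIs, 11.3-fold higher (4.77 to 27.2). Both of the latter rest on few molecules. The 13 Mmp9 UMIs lay in 5 osteolineage-like cells, at 9.67 CPM, below the 23.6 CPM of Mmp9 in the free RNA of LepR_tdT.

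The inhibitor genes did not move as a group. Timp1 had 696 UMIs (518 CPM) in osteolineage-like and 1892 UMIs (135 CPM) in stromal-like cells, 3.85-fold higher (3.52 to 4.20). Timp3 had 400 UMIs (297 CPM) and 715 UMIs (50.8 CPM), 5.85-fold higher (5.17 to 6.62). Timp2 was at 599 and 345 CPM, a ratio of 1.73 (1.61 to 1.87). Timp4 went the other way, with 8 UMIs (5.95 CPM) in osteolineage-like and 951 UMIs (67.6 CPM) in stromal-like cells, 11.4-fold higher in stromal-like cells (5.74 to 26.4). The summed TIMP level was 1420 CPM in osteolineage-like cells against 598 CPM, and Timp2 and Timp1 led it in both. Timp1 and Timp3 were uneven over osteolineage-like cells, a spread that the counting intervals do not measure. The 25 cells with most UMIs of each gene held 57.8% of Timp1 and 69.0% of Timp3 UMIs, against 27.2% for Timp2. No UMI was found in 40.2% of the cells for Timp1 and 59.4% for Timp3.

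Among the ADAMTS genes, Adamts5 was at 238 and 82.8 CPM, 2.87-fold higher in osteolineage-like cells (2.53 to 3.25), and its neighbour Adamts1 at 159 and 331 CPM, 2.08-fold higher in stromal-like cells (1.81 to 2.40). The call for Adamts1 was lost at a finer clustering, with a log2 ratio of -0.93, and after thinning, with -0.81. At the finer clustering the stromal-like class had 2481 cells in place of 2955. A group of 412 stromal-like cells with Adamts1 at 474 CPM fell in an unnamed cluster there and was left out. Adamts15, with 14 and 65 UMIs, was 2.25-fold higher in osteolineage-like cells (1.17 to 4.06). Adamts2 did not differ by 2-fold, at 584 and 621 CPM, a ratio of 0.939 (0.872 to 1.01). Mmp23 was at 164 and 275 CPM, Mmp11 at 64.0 and 37.8 CPM and Adamts9 at 64.7 and 36.3 CPM. Adamtsl3 was 4.34-fold higher in stromal-like cells (1.83 to 13.5), on 5 and 227 UMIs, and Mmp19 2.21-fold higher (1.14 to 4.90), on 9 and 208 UMIs. Neither of the last pair kept its call after thinning.

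The other pathway genes gave few calls inside this library. Of 8 measured partners of ADAM10 and ADAM17 and of 3 measured plasminogen system genes, none differed by 2-fold. Of 6 other regulators, Reck was higher in osteolineage-like cells (30.5 against 12.1 CPM), and Tfpi2 (14.1 against 44.7 CPM) and Thsd4 were lower. Of 12 other proteinases 2 were higher, Bmp1, the procollagen C-proteinase (168 against 72.7 CPM), and Fap (521 against 168 CPM), and 2 lower, Mme and Pappa. Of 11 shed ADAM substrates 1 was higher, Tnfsf11 at 277 against 85.7 CPM, and 2 lower, Kitl at 341 against 821 CPM and Cx3cl1. Of 9 ADAMTS substrates 4 were higher, the collagen genes Col1a1 (3092 against 122 CPM), Col1a2 and Col3a1 and the matrix gene Comp (286 against 20.0 CPM), and 1 lower, Vegfc. Col1a1 and Col1a2 were in the osteolineage list that named the class, so their calls follow in part from the naming. Col3a1 and Comp were in the fibroblast and chondrocyte lists.

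Markers of other cell types moved with this comparison. The summed level of 7 chondrocyte markers was 453 CPM in osteolineage-like and 47.6 CPM in stromal-like cells, with 4 of the 7 at 3 or more UMIs and 2 at 0 in osteolineage-like cells. Fibroblast markers summed to 5956 and 1009 CPM and erythroid markers to 2982 and 255 CPM. The stromal list itself stood at 17365 and 49397 CPM and the osteolineage list at 9038 and 1711 CPM. The part of the fibroblast list in the result was not tested, and that of the erythroid list was not tested alone. An alternative left out 7 osteolineage-like and 115 stromal-like cells with at least 5 UMIs of erythroid, granulocyte or endothelial markers. No member ratio past 2-fold reversed in it. When the 143 osteolineage-like cells with a chondrocyte marker UMI were left out, a choice made after seeing the data, the 106 remaining cells gave log2 ratios of 4.02 for Mmp13 (4.55 with all cells), 4.11 for Mmp2, 2.51 for Timp3, 1.90 for Timp1 and -3.59 for Timp4.

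**Figure D3:**
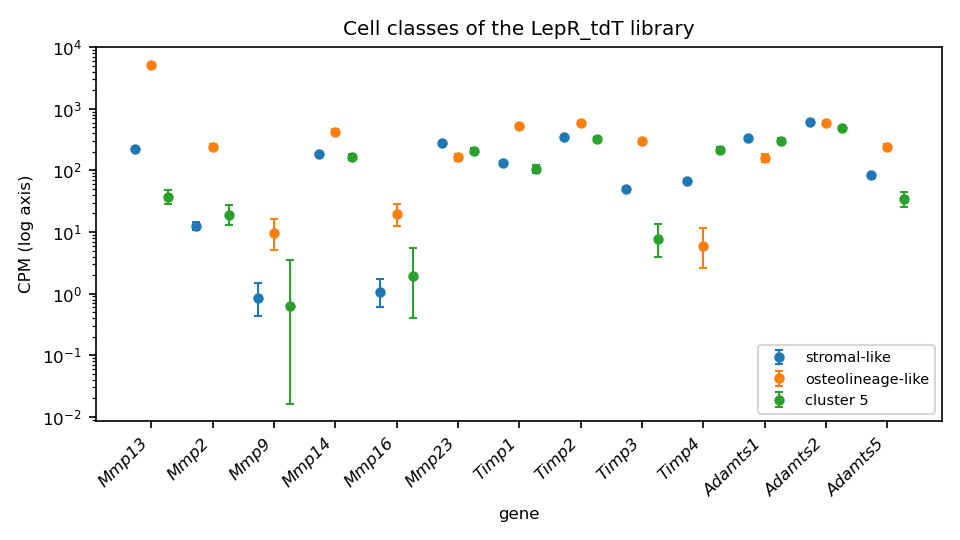
CPM on a log axis (y) of 13 members (x) in stromal-like, osteolineage-like and cluster 5 cells of the LepR_tdT library, as points with 95% counting intervals. Mmp13, Mmp2, Timp1 and Timp3 lie highest in osteolineage-like cells, Timp4 lies lowest there and highest in cluster 5, and Adamts2 lies between 482 and 621 CPM in all 3.

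Mmp13 was spread unevenly over cells. In osteolineage-like cells 79.9% had a UMI of it, and the 156 cells with at least 5 UMIs held 98.7% of its UMIs there, up to 306 in a cell. In stromal-like cells 31.1% had a UMI, and the 176 cells with at least 5 UMIs (5.96%) held 62.2%. After thinning to 1000 UMIs the shares of cells with a UMI were 66.9% and 12.6%. For cell types not known for the gene, the share differed. In the 60 endothelial-like cells of the same library it was 3.33% (0.406% to 11.5%, exact Clopper-Pearson interval) and 1.69% after thinning, at a median of 3469 UMIs per cell against 4617 in stromal-like cells. The free RNA of that library held Mmp13 at 525 CPM. In the 24 granulocyte-like cells of LepR_tdT, with a median of 9280 UMIs, 9 cells (37.5%, 18.8% to 59.4%) had a UMI of Mmp13, and 20.8% after thinning, both above the stromal-like shares. Their level was 1061 CPM (299 UMIs), and the granulocyte-like cells of EC had none.

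In stromal-like cells the top 10% of cells by UMIs of each gene held 75.1% of Mmp13 UMIs, compared with 36.1% for Mmp14 at a similar level, 33.7% for Mmp23, 30.8% for Timp2 and 27.3% for Adamts2. Timp3 was as uneven, with 89.8% in the top 10%, at a lower level of 50.8 CPM and at most 25 UMIs in a cell. Timp1 and Adamts1 lay between, at 50.7% and 50.4%. In sinusoidal-like cells the 2 leading members were even, with 26.7% for Adamts5 and 29.1% for Timp3, and 8.19% of cells had no UMI of Adamts5.

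**Figure D4:**
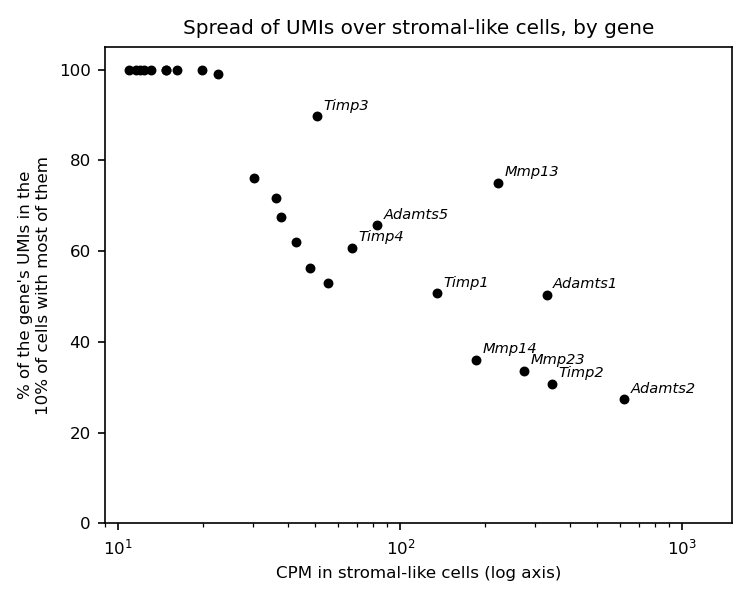
Percent of a gene's UMIs held by the 10% of stromal-like cells with most of them (y) against its CPM in stromal-like cells on a log axis (x), 1 point per member with at least 100 UMIs in these cells. Genes with few UMIs can reach 100%, and Mmp13 (75.1% at 222 CPM) lies above Mmp14 (36.1% at 186 CPM) and Mmp23 (33.7% at 275 CPM).

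Stromal-like cells with more Mmp13 UMIs differed in other genes. From the 2036 cells with none, through the 743 with 1 to 4 UMIs, to the 176 with at least 5, the alkaline phosphatase gene Alpl was at 40.3, 69.0 and 151 CPM and Col1a1 at 107, 132 and 220 CPM. Lepr was at 677, 663 and 552 CPM. Of the members, Mmp2 was at 10.3, 12.9 and 28.8 CPM, Mmp14 at 174, 198 and 245 CPM, Timp2 at 330, 359 and 432 CPM and Adamts2 at 596, 644 and 769 CPM. Timp1 stayed between 132 and 141 CPM, and Timp3 was at 51.6, 52.3 and 38.4 CPM. These groups are made from 1 gene's counts in cells of 1 library and also differ in median depth, at 4491, 4876 and 5409 UMIs per cell, so the values are a description.

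Stromal-like cells were themselves not uniform. A finer clustering, at Leiden resolution 1.0, split them mainly into groups of 1543, 925 and 412 cells. The group of 925, with Tnfsf11 and the stress gene Gadd45b among its leading genes, had Mmp13 at 398 CPM, against 133 and 107 CPM in the other two. Adamts5 was at 114 CPM in it, against 68.4 and 55.9 CPM. Adamts1 was at 232, 415 and 474 CPM in the groups of 1543, 925 and 412 cells. Adamts2 (625, 648 and 538 CPM) and Timp2 (314, 385 and 362 CPM) varied less.

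Cluster 5, led by Cxcl5, Fndc1 and Kit, carried the stromal markers at 50967 CPM and was compared with stromal-like cells. Of 37 measured members 3 were at least 2-fold higher in it (3.89% over all genes) and 6 lower (6.87% over all genes). Timp4 had 333 UMIs (213 CPM) in cluster 5 and 951 UMIs (67.6 CPM) in stromal-like cells, 3.14-fold higher (2.77 to 3.56). Timp3 had 12 UMIs (7.66 CPM) and 715 UMIs (50.8 CPM), 6.64-fold lower (3.78 to 12.9). Mmp13 had 59 UMIs (37.7 CPM) and 3127 UMIs (222 CPM), 5.90-fold lower (4.56 to 7.77), and Adamts5 was 2.40-fold lower (1.83 to 3.22). The other calls rested on fewer UMIs: Adam23 and Adamts12 were higher in cluster 5, and Adamtsl3, Mmp17 and Adam5 lower, with intervals that span 1 for Adamts12, Mmp17 and Adam5. In Timp4, Timp3, Mmp13 and Adamts5 cluster 5 thus lay on the opposite side of stromal-like cells from the osteolineage-like cells. Adamtsl3, the other member called in both comparisons, was lower than in stromal-like cells in each.

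Within the EC library, arterial-like cells were compared with sinusoidal-like cells. Of 23 measured members, 6 were at least 2-fold higher in arterial-like cells (9.55% over all genes) and 2 in sinusoidal-like cells (4.71% over all genes). The median log2 ratio was 0.47 for the members and 0.18 for all genes, and scaling by the median ratio of genes would lower each log2 ratio by 0.22. Adam15, a membrane ADAM present at endothelial cell contacts, had 375 UMIs (433 CPM) in 250 arterial-like and 1182 UMIs (98.5 CPM) in 3456 sinusoidal-like cells, 4.40-fold higher (3.91 to 4.95). Its UMIs were found in 60.4% and 27.3% of the cells, and in 31.9% and 8.73% after thinning. Timp2 had 144 UMIs (166 CPM) and 526 UMIs (43.8 CPM), 3.80-fold higher (3.13 to 4.57). Adam19 was at 38.1 and 12.3 CPM, 3.09-fold higher (2.05 to 4.53), and Mmp15 at 37.0 and 13.1 CPM, 2.83-fold higher (1.87 to 4.15). The 2 other calls rested on few UMIs, 6 and 16 for Mmp11 and 4 and 24 for Mmp19, whose interval of 0.583 to 6.73 spans a ratio of 1.

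Adamts5 marked the other side. It had 265 UMIs (306 CPM) in arterial-like and 16686 UMIs (1391 CPM) in sinusoidal-like cells, 4.54-fold higher in sinusoidal-like cells (4.02 to 5.15). In 159 of 250 arterial-like cells it had no UMI, and 11 arterial-like cells with at least 5 UMIs held 45.3% of its UMIs in that class. Sinusoidal markers summed to 2602 CPM in arterial-like and 7068 CPM in sinusoidal-like cells, and their part in the arterial-like Adamts5 level was not tested. Adam12 was 2.75-fold higher in sinusoidal-like cells (1.38 to 6.43), on 8 and 305 UMIs, and did not keep the call after thinning, with a log2 ratio of -0.68. Timp3 was shared, at 668 and 864 CPM, a ratio of 0.773 (0.710 to 0.841), as were Mmp14 (157 and 114 CPM), Adam10 (113 and 82.6 CPM) and Adamts1 (239 and 349 CPM). Adamts9 was at 75.1 and 38.3 CPM, a ratio of 1.96 (1.49 to 2.55), just under the 2-fold line.

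Of the other pathway genes, 2 of 11 partners of ADAM10 and ADAM17 were higher in arterial-like cells, among them the proprotein convertase gene Pcsk5 with 31 UMIs (35.8 CPM) against 1 UMI, and 1 was lower, Pcsk6 with 0 against 94 UMIs. Of 12 shed ADAM substrates 3 were higher, among them Kitl at 98.2 against 1.92 CPM, and 2 lower, the adhesion genes Vcam1 (612 against 2064 CPM) and Sele (46.2 against 168 CPM). Of 9 other proteinases 1 was higher and 2 lower, with Ctsl at 2707 against 7651 CPM. Of 6 plasminogen system genes 2 were higher, among them Plat at 23.1 against 0.833 CPM, and 1 lower. None of 5 other regulators reached 2-fold.

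**Figure D5:**
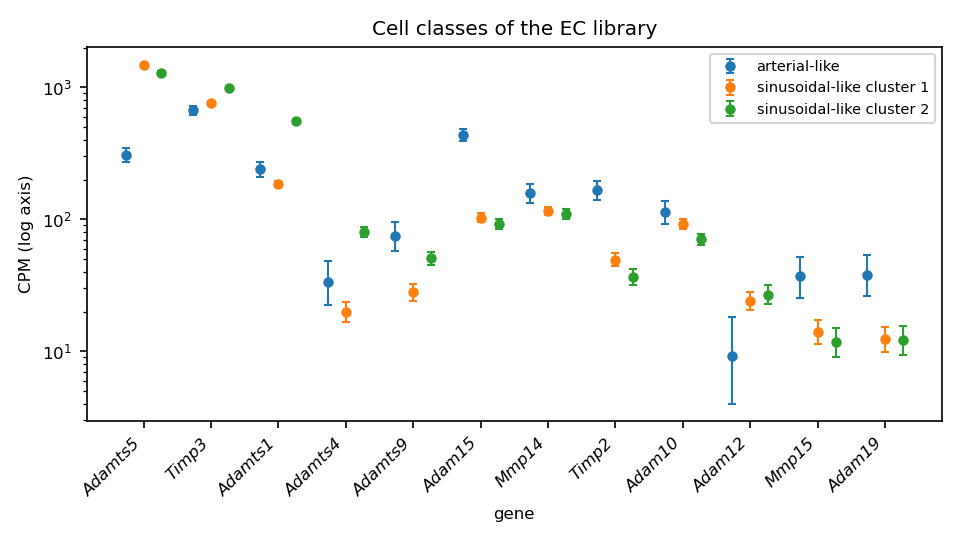
CPM on a log axis (y) of 12 members (x) in arterial-like cells and the 2 sinusoidal-like clusters of the EC library, as points with 95% counting intervals. Adam15, Timp2, Mmp15 and Adam19 lie highest in arterial-like cells, Adamts5 lies lowest there at 306 CPM, and Adamts1 and Adamts4 lie highest in sinusoidal-like cluster 2.

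The sinusoidal-like cells fell into 2 clusters, 2058 cells of cluster 1 and 1398 of cluster 2, which was led by stress and immediate early genes such as Apold1, Atf3 and Klf4. Of 22 measured members 4 were at least 2-fold higher in cluster 2 (2% over all genes) and 0 were higher in cluster 1 (1.13% over all genes). Adamts4 had 433 UMIs (80.2 CPM) in cluster 2 and 132 UMIs (20.0 CPM) in cluster 1, 4.01-fold higher (3.30 to 4.91). Adamts1 had 2974 UMIs (551 CPM) and 1219 UMIs (185 CPM), 2.98-fold higher (2.79 to 3.19). Mmp19 and Adam4 were the 2 others, on 24 and 28 UMIs in all. The main endothelial members differed little between the clusters, with Adamts5 at 1290 and 1473 CPM and Timp3 at 990 and 761 CPM.

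Mmp13 lies at one end of a run of 10 neighbouring Mmp genes on chromosome 9 (chr9:7272514-7699585) with no other protein-coding gene among them. Mmp13 had 10742 UMIs over all cells. The other 9 had 25 UMIs together, of which Mmp8 had 21, Mmp27 3 and Mmp3 1, and 6 had none. The RNA of this gene cluster was thus almost all Mmp13 in LepR_tdT cells, whereas in EC cells Mmp13 had 1 UMI, Mmp8 11 and Mmp27 1. The Mmp3 window printed above holds AP-1 and TATA letters too, from which nothing is read about its level.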

How the data were processed

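Each library was given as raw UMI counts per gene and barcode, deposited by the authors with a table of the cells. Per the submitters' processing notes, the tools were Cell Ranger 2.1.1 and Seurat 2.3.4 and the build mm10, with no role stated. UMI sums recomputed from the counts equal the table's for all cells. Cells held 14111524 UMIs in EC and 18139911 in LepR_tdT. Barcodes outside the table with at most 100 UMIs were taken as free RNA.

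All cells were clustered together in scanpy 1.11.5 (Python 3.11.15): 10000 UMIs per cell, log, the most variable 2000 genes less all members, tdTomato, mitochondrial genes and genes in fewer than 10 cells (1571 left, 14 members removed), scaled to at most 10, 30 components, 15 neighbours and Leiden clustering at resolution 0.5, best of 20 seeds. A name needed 3 markers at 1.5-fold. Names stayed unset where another list led, 3 leading genes were mitochondrial, or median depth was under the library's divided by 3. Shallow unnamed clusters 3 and 4 entered no comparison of classes. Scrublet marked 1 cell, so it did not work as a doublet caller here, and an alternative leaves out cells with 5 UMIs of another lineage's markers.

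UMIs were summed per class and scaled per 1000000. Sums carry exact Poisson intervals and ratios the conditional exact binomial one (scipy 1.17.1). A class under 3 UMIs was set to 3 in medians and bounds. The thresholds of 20 UMIs and 2-fold, the role groups, which follow gene names, and the other lists were chosen with earlier results of these data known, as were the members. Members with at least 100 UMIs, the Timp genes, Mmp8, Mmp9, Adamts13 and the highest of each role group are named by rule, as are the 4 listed genes with the largest ratio in each direction. Others were named after their values were seen. Counting with or without strand is not given in the sources used here, so reads of overlapping or near-identical genes could be shared. The calculation was run on simulated Poisson counts with set folds. These held no uneven spread over cells, free RNA or library effect, so they check the arithmetic only. Positions come from GENCODE M21 on GRCm38 (27645 of 27999 gene identifiers found, all 84 members), promoters from RefSeq.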

Additional observations from a re-analysis of the deposited data

Results flagged for a closer look

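Signals lay in EC barcodes with at most 100 UMIs outside the cell table. They enter the comparisons of classes only through the alternative that subtracts free RNA. In these barcodes Timp4 was at 106 CPM (375 UMIs), against at most 3.47 CPM in any class of EC cells. Adamts2 was at 14.2 CPM (50 UMIs), against at most 0.556 CPM in a class. Mmp23 was at 6.52 CPM (23 UMIs), against at most 0.185 CPM in a class. Among the LepR_tdT classes, Adamts2 and Mmp23 were highest in stromal-like cells. Timp4 was highest in cluster 5, at 213 CPM against 67.6 CPM in stromal-like cells. The free RNA of LepR_tdT held Timp4, Adamts2 and Mmp23 at 176, 379 and 202 CPM. The source of this RNA was not tested.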

How the results depend on the processing

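No paired analysis was possible because each population has 1 library. Counts that moved by over 1.5 times were few. Thinning cells to 1000 UMIs, without the shallower ones, left 15 members higher in LepR_tdT in place of 23, 1 higher in stromal-like than in osteolineage-like cells in place of 4, and 1 higher in sinusoidal-like than in arterial-like cells in place of 2. The last count was also 1 at Leiden resolution 1.0. At that resolution some clusters were unnamed and left out, the stress-led sinusoidal-like one among them. The classes then held 2481 stromal-like, 2217 endothelial-like and 1902 sinusoidal-like cells, in place of 2955, 3706 and 3456. With the 60 endothelial-like cells of LepR_tdT in place of those of EC, 9 and 2 members were higher in stromal-like and endothelial-like cells in place of 20 and 9, and Adamts14, on 3 UMIs in those cells, reversed to a log2 ratio of -0.40. Fewer UMIs or fewer measured members accompany each of these. No other named ratio past 2-fold in the library or class comparisons reversed under the alternatives, which were free RNA subtraction, TMM and median-ratio scaling, 50 UMIs as the minimum, thinning, resolution 1.0 and left-out cells. Without cells holding a chondrocyte marker UMI, Mmp19 in osteolineage-like against stromal-like cells was at -0.66 and lost its call. That setting, leaving out cells with markers of another lineage, and adding the unnamed clusters were chosen after seeing the data. Median depth limits what a single cell shows, and counts of 0 in the 250 arterial-like cells allow up to 3.47 CPM.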
